A study of Rattus norvegicus with 9 samples.

Results

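The transcriptome of rat cortical neurons that had been kept silent for 48 h was described from 3 of the 9 samples of the series, those collected while tetrodotoxin (TTX) was still present. TTX is a toxin that plugs the pore of most voltage-gated sodium channels and so prevents action potentials. The 3 samples were chosen by their titles, TTX replicates 1 to 3. The cells were dissociated from the cortex of rat pups taken before birth, grown in a serum-free neuronal medium (Neurobasal with B27 or NS21), and taken for the experiment between days 11 and 15 of culture. The labels name no strain and describe no genetic change. They call the cells mature neurons and do not say whether the replicates are separate cultures. The other 6 samples, collected after the toxin had been washed out, were not used, so no value here is a response to silence or to its end.

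In a firing cortical neuron, calcium that enters through synaptic receptors and voltage-gated channels activates kinases, which act on transcription factors already bound to DNA. These switch on immediate early genes within minutes, among them further transcription factors, and later the genes of secreted peptides and synaptic proteins. TTX in the medium is a standard way to remove action potentials from such cultures, while spontaneous release of single vesicles can go on. Neurons deprived of firing are known for slow changes in the strength of their synapses and in their excitability.

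For each array, 500 ng of total RNA was labelled with the dye Cy3 and hybridised to a single-colour rat array. The level of a probe is log2 of its processed signal minus log2 of the 75th percentile of the array's probe signals, so that a level of 0 is the signal of the 75th percentile, and each step of 1 is a doubling of signal. A gene is represented by its brightest probe. A gene is called detected where at least 1 of its probes stood well above background on all 3 arrays, and at background where no probe did on any array. For such a gene only an upper bound on the signal of its probes is known. The dimmest signals flagged as above background had levels of -7.24, -7.07 and -7.01 on the 3 arrays, and the highest mean level of a gene at background was -6.91. How bright a probe is depends also on its sequence, so levels of different genes are signals and not transcript abundances. Probes of the same gene can differ as well: among 3627 genes with several probes, the range between them was over 4 for 907, and for list genes with such a gap the dimmer value, or the number of probes behind the level, is given beside the gene.

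Of 15522 genes with a symbol, 12140 (78.2%) were detected, 2725 (17.6%) were at background and 657 lay between. Detection by this flag also took in genes known from elsewhere. Of 31 genes known from liver, pancreas, muscle, kidney, skin, testis or other non-neural organs, 19 were detected. Why these were detected was not tested, and 14 of them had levels below -4. Detected genes are therefore given in 3 bands: 5479 genes were bright (level above 0), 4324 moderate (-4 to 0) and 2337 weak (below -4). The bright and moderate bands together hold 63.2% of the genes. The level of -4 was chosen after the levels of the 31 non-neural genes were seen, so their count above it is no support for the cut. Of the 31 non-neural genes, 5 had levels above -4, led by the myosin heavy chains Myh7 (1.78 ± 0.25, SD, n = 3) and Myh6 (1.42 ± 0.25), whose sequences are closely related, followed by Mb (-1.45), Actn3 (-2.17) and Prm1 (-2.59). Cell types are therefore read from the counts of whole lists and not from single probes.

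The 3 arrays were alike. Their 75th percentile signals were 1706, 1703 and 2343, and 74.8 to 75.9% of probes stood well above background. Over the detected genes, levels correlated between arrays with Pearson's r of 0.995 to 0.997, across genes, which are not independent replicates. The median SD of a detected gene was 0.129, and it was 0.10 in the bright, 0.145 in the moderate and 0.235 in the weak band. Replicate 1 lay on one slide and replicates 2 and 3 on another. The number of arrays limits the precision of every value.

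The brightest gene was Tubb2b, a beta-tubulin of growing neurons, with levels of 8.10, 8.34 and 7.96 on replicates 1 to 3. Also among the brightest were the polyubiquitin gene Ubb (7.72 ± 0.21), the ribosomal stalk gene Rplp1 (7.61 ± 0.14) and Nnat (7.61 ± 0.14), an imprinted gene of developing brain. Rps23, Ftl1 (ferritin light chain), Cox6a1 of cytochrome c oxidase, the tubulin gene Tubb5 and Pebp1 were among the next, at levels from 7.57 down to 7.45.

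The rest of the 25 brightest genes had levels between 7.45 and 7.23. They included Gap43, which encodes a protein of growth cones, and Stmn1, which encodes a regulator of microtubules. They also included Fabp5 (a fatty acid binding protein), Mtch1, Ap2m1 (an adaptor of clathrin-coated vesicles), Ppial4g, the pentose phosphate enzyme Tkt, Tpt1, Slc22a17 and the ATP synthase gene Atp5me. The ribosomal genes Rps6, Rpl8, Rps2 and Rps16 were in the set as well. Ribosomal protein genes made up 7 of the 25 and 27 of the 100 brightest genes. The 25 genes carried 5.92 to 6.7% of the summed signal of an array and the 1000 brightest 65.5 to 67.5%. The order within the 25 was not firm, since their levels lie close to each other relative to their SDs: 19 of the 25 were among the 25 brightest of every array.

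Genes of protein synthesis and energy supply were mostly bright. All 84 genes of cytosolic ribosomal proteins were detected, 79 of them bright, with a median level of 6.15 against -1.93 for all genes. Of 71 genes of oxidative phosphorylation, 69 were detected (median 4.76), and Cox6b1 and the testis form Cox8c were at background. All 19 genes of glucose uptake and glycolysis were detected (median 3.96), led by Eno1 (6.67), Pgam1 (6.25), Gapdh (6.0) and Hk1 (5.91), of which Pgam1 and Hk1 had dimmer probes at 2.85 and 2.58. All 15 common reference genes were detected, and Actb (7.17), Eef1a1 (6.85) and Rpl13a (6.43) were among the highest.

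The labelled cell type was checked against markers. All 25 general neuron markers were detected, 20 of them bright, with a median of 4.26. Gap43 had levels of 7.34, 7.46 and 7.06, Mapt (the tau protein of axons) 6.91, 7.08 and 6.97, and Stmn2, a stathmin of growing axons, 6.74, 7.01 and 6.76. Rtn1 followed at 6.59 ± 0.06. Gap43 and Stmn2 were thus among the brightest of the list. Dcx, a microtubule protein of immature neurons, had 6.23 ± 0.14, and Celf4 had 6.43, with a dimmer probe at 4.52. The lowest in the list were Nefh (-3.31), the heavy neurofilament, and Thy1 (-3.15), both of which rise as neurons mature. These 4 genes were named after their values were seen, and the maturity of the cells was not read from them. Slc12a5, a gene of mature neurons outside this list, had 5.31 on 1 probe and -4.31 on the other.

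Signals of excitatory cortical neurons were present: all 12 genes of that list were detected and 7 were bright. The forebrain factor Lhx2 (4.59 ± 0.05) and the neuronal factors Neurod6 (3.87 ± 0.08) and Neurod2 (3.16 ± 0.13) were among the highest. Among the vesicular glutamate transporters, both named after their values were seen, Slc17a6 had levels of 1.52, 1.42 and 1.44, and Slc17a7, the main form of adult cortex, had -2.88, -2.38 and -2.37. All 18 genes of cortical layers were detected, 17 above -4. Crym (5.65), Sox5 (3.50), Foxp1 (3.00) and Etv1 (2.99) had the strongest signals, with dimmer probes of Sox5 at -1.18 and of Etv1 at -0.30.

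Genes of inhibitory neurons gave a divided picture. Of 25, 24 were detected, 11 of them bright and 7 weak. The peptide precursors Sst (5.16 ± 0.39), Cck (4.69 ± 0.10) and Npy (3.36 ± 0.13) and the calcium-binding protein gene Calb2 (4.84 ± 0.39) led. Prox1 was at background. The GABA-synthesising enzymes Gad1 (-0.36 ± 0.17) and Gad2 (-2.62 ± 0.33) were moderate, and the vesicular GABA transporter gene Slc32a1 was bright (2.89 ± 0.12). Pvalb, the marker of fast-spiking interneurons, was weak, with levels of -5.60, -5.51 and -5.36. These last 4 genes were named after their values were seen.

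Genes that define neurons outside the cortex were low as groups. Of 24 genes of monoamine, cholinergic and hypothalamic neurons, 22 were detected but none was bright, 9 lay above -4, and the median was -5.16. Pomc (-0.80), Slc18a3 (-1.57), Ghrh (-1.65) and Ddc (-1.84) were the highest, Tph2 lay between and the dopamine transporter gene Slc6a3 was at background. Of 23 genes of hindbrain, spinal cord and other regions, 13 were detected and only Pax2 (-3.37) and Hoxa5 (-3.96, 1 of 2 probes) lay above -4, followed by Tlx3 (-4.01) and Otx2 (-4.37). Hoxd4 lay between, and Hoxa2, Hoxa3, Hoxa4, Hoxb2, Hoxb3, Hoxd3, Sim1 and Gata3 were among the 9 at background.

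The cultures also carried signals of glia and of dividing cells, which the label does not mention. All 15 astrocyte genes were detected, 8 of them bright. The glutamate transporter gene Slc1a3 had levels of 6.01, 6.25 and 5.99, and Atp1b2 (4.77, other probes -1.98 and -3.38), Gja1 (3.55, 1 of 2 probes; the other was at background) and Aldoc (3.30) followed. Gfap, the filament of mature astrocytes, was moderate at -0.01, -0.97 and -0.23, a gene named after its values were seen. Of 14 oligodendrocyte genes, 13 were detected and 4 were bright, among them Olig1 (4.89), Sox10 (1.77) and Cnp (1.46), and Opalin was at background. However, only 9 (64.3%) of the 14 lay above -4, near the 63.2% of all genes. Their median of -3.27 was below that of all genes (-1.93). All 6 genes of oligodendrocyte precursors were detected, with Pdgfra at 3.80, 3.39 and 3.42, Sox10 at 1.77, Cspg4 at 1.44 and Olig2 at -1.33.

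All 14 genes of progenitors and of the cell cycle lay above -4. The progenitor genes Nes (3.72 ± 0.14), Sox2 (3.29 ± 0.20) and Vim (2.91 ± 0.03) and the mitotic kinase gene Cdk1 (3.25 ± 0.12) led. In bulk RNA, more cells of a type and more RNA per cell cannot be told apart, and Sox2, Nes and Vim are shared by progenitors and astrocytes. Replicate 1 lay above the mean of replicates 2 and 3 by a median of 0.28 over the astrocyte genes, 0.22 over the progenitor genes and 0.18 over the precursor genes, while over all genes the median difference was -0.073. Its slide and its culture cannot be told apart here.

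Microglia and blood vessels left little signal. Of 16 microglia genes, 10 were detected, but only Cd68 (-1.94), Laptm5 (-1.98) and C1qb (-3.69) lay above -4, with Cd14 next at -4.02. Csf1r lay between, and C1qa, Aif1, Itgam, Cx3cr1 and Tmem119 were at background. Of 12 endothelial genes, 5 were detected and only Kdr (-2.21) lay above -4. Cdh5 (-5.60), Vwf (-6.06) and Cldn5 (-6.08) were weak, Cdh5 and Vwf on 1 of 2 probes, Pecam1 and Slco1a4 lay between, and Flt1, Tie1, Tek, Emcn and Abcb1a were at background.

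Other non-neural brain cells were intermediate. Of 13 fibroblast and pericyte genes, 11 were detected and 10 lay above -4, with Myl9 (2.29), Fn1 (0.95), Anpep (-0.25) and Dcn (-0.30) highest. Second probes had -0.15 for Myl9 and -0.62 for Fn1, and that of Anpep was at background (-8.64). Postn lay between and the pericyte gene Rgs5 was at background. Of 9 genes of ependyma and choroid plexus, 7 were detected, led by the cilium genes Foxj1 (0.97), Dnah9 (0.63) and Drc12 (-1.39) and by Ttr (-4.22), and Clic6 and Kl were at background. Dnah9 rests on 1 of 4 probes, as the others had -3.21 or were at background (-8.84 and -8.95).

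**Figure D1:**
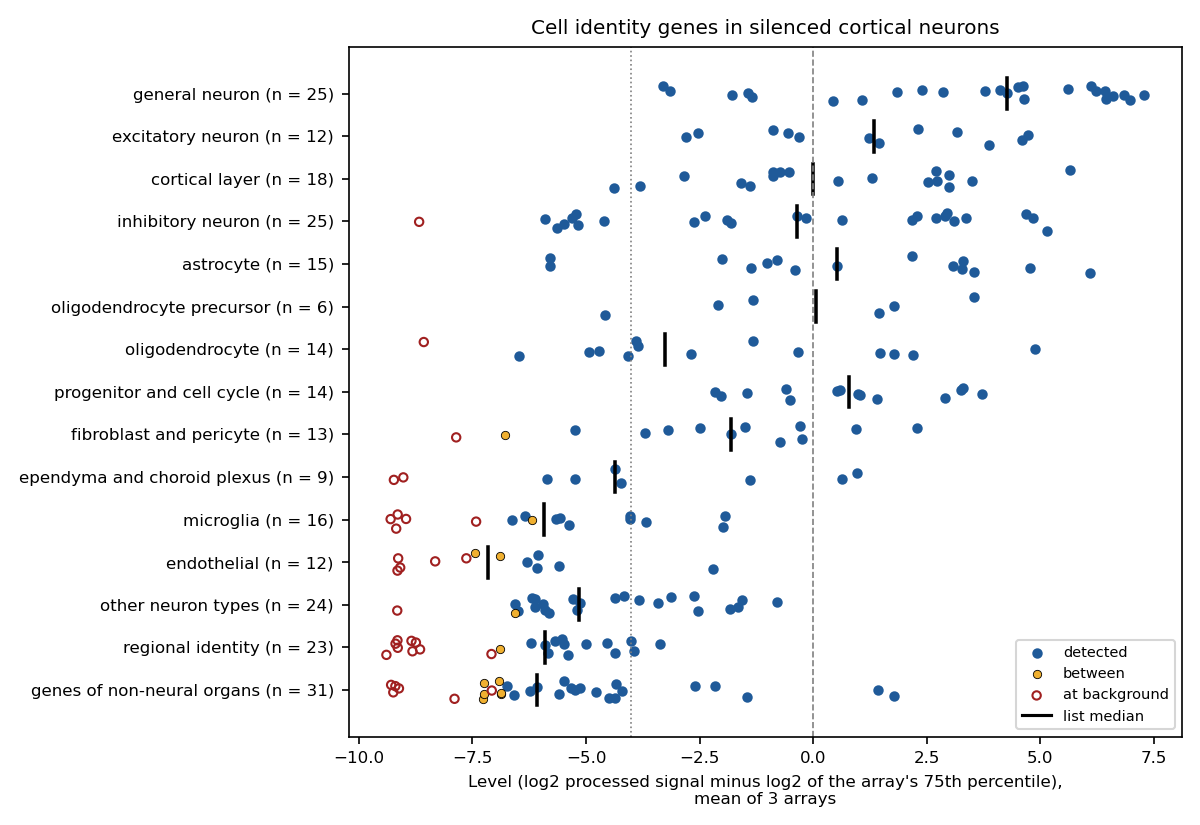
Levels of cell identity genes in the silenced cultures, as the mean of 3 TTX arrays, 1 point per gene and 1 row per list. Black bars mark list medians, the dashed and dotted lines mark levels of 0 and -4, and colours and open symbols mark whether a gene was detected, between or at background. The medians fall from 4.26 for general neuron genes to -7.17 for endothelial genes, and the list of non-neural organs has a median of -6.09.

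Most immediate early transcription factors were detected in the silenced cultures. The RNA came from whole cultures that also carried glial and progenitor signals. Which cells gave the signal of an activity gene, in this list or those below, cannot be told. Of 27, 26 (96.3%) were, beside 78.2% of all genes, with a list median of -0.71. Of these, 9 were bright, and 22 (81.5%) lay above -4, beside 63.2% of all genes. Jund, a Jun protein known to be present without stimulation, had levels of 5.55, 5.76 and 5.16. Klf6 had 4.78, 4.94 and 4.91, and Jun, the partner of Fos in the AP-1 dimer, had 3.02, 3.38 and 3.47. In each of these genes all 3 arrays lay far above 0. Klf10 (3.26 ± 0.15), Ier2 (2.86 ± 0.08), Myc (2.67 ± 0.15) and the orphan nuclear receptors Nr4a3 (2.62 ± 0.10) and Nr4a1 (1.63 ± 0.29) were also bright. Dimmer probes existed for Jund (0.67), Klf6 (0.44), Klf10 (0.20) and Nr4a3 (1.94 and -3.04), of which the last alone lay below 0.

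The classic markers of recent firing were spread over the whole range. Egr1, a zinc finger factor, was bright with levels of 0.47, 0.75 and 1.05. Fos had -3.06, -2.92 and -2.52, in the lower part of the moderate band but well above background on every array. Its relatives Fosl2 (-2.66), Fosb (-3.40) and Fosl1 (-5.07) lay near or below it, and Junb had -3.05, -3.22 and -3.31. Egr4 (-0.22), Egr2 (-1.84) and Egr3 (-6.09) differed widely within the family. The arrays of each gene lay closer together than these gaps, but the gaps are between different probes.

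Npas4, a factor induced almost exclusively by calcium in neurons, was the only one of the 27 at background, with levels of -8.58, -8.36 and -8.63. None of the 3 arrays reached the dimmest signal above background, and the gene had a single probe, as had Zfp36 below. Maff (-6.54) and Csrnp1 (-4.13) were weak. Crem (-0.59), Per1 (-0.60), Atf3 (-0.60), Klf4 (-0.71), Nr4a2 (-1.40), Bhlhe40 (-1.42) and Klf2 (-3.36) were moderate.

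Immediate early genes that encode enzymes, scaffolds and signalling proteins also ranged from bright to background. Of 29, 27 (93.1%) were detected, beside 78.2% of all genes, with 12 bright and 8 moderate. Bright and moderate genes made up 69.0%, beside 63.2% of all genes. The list median of -1.80 was near that of all genes (-1.93). Rheb, a small GTPase upstream of mTOR, had levels of 4.33, 4.40 and 4.30, and the kinase gene Sik1 had 3.07, 2.94 and 2.61. Errfi1 (2.82), Rgs2 (2.56), Gadd45g (1.94), Plk2 (1.85), Dusp6 (1.83), Btg2 (1.49), Gadd45a (0.86), Dusp5 (0.27) and Sgk1 (0.16) were bright as well. Arc, which acts in the removal of AMPA receptors from synapses, was moderate at -1.94, -1.77 and -1.69. Its 3 arrays spanned less than a doubling of signal.

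The scaffold gene Homer1 was represented by 2 probes that did not agree, with means of 1.5 and -2.69, each steady over the 3 arrays. Which transcripts of the gene each probe reads was not analysed here. The moderate genes included Plk3 (-0.31), the phosphatase gene Dusp1 (-0.65), Gadd45b (-2.13), Ier3 (-3.06), Trib1 (-3.38), Ccn1 (-3.53) and Ccn2 (-3.82). The weak ones were Dusp4 (-4.49), Arl4d (-4.54), Amigo3 (-4.82), Pim1 (-5.12), Ch25h (-5.23), Arl5b (-5.49) and the prostaglandin synthase gene Ptgs2 (-5.82, 1 of 2 probes). Plk3 had a second probe at -3.72. Edn1 stood above background on 1 array only. Zfp36, whose protein speeds the decay of AU-rich mRNAs, was at background, with levels of -9.48, -9.37 and -8.10.

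**Figure D2:**
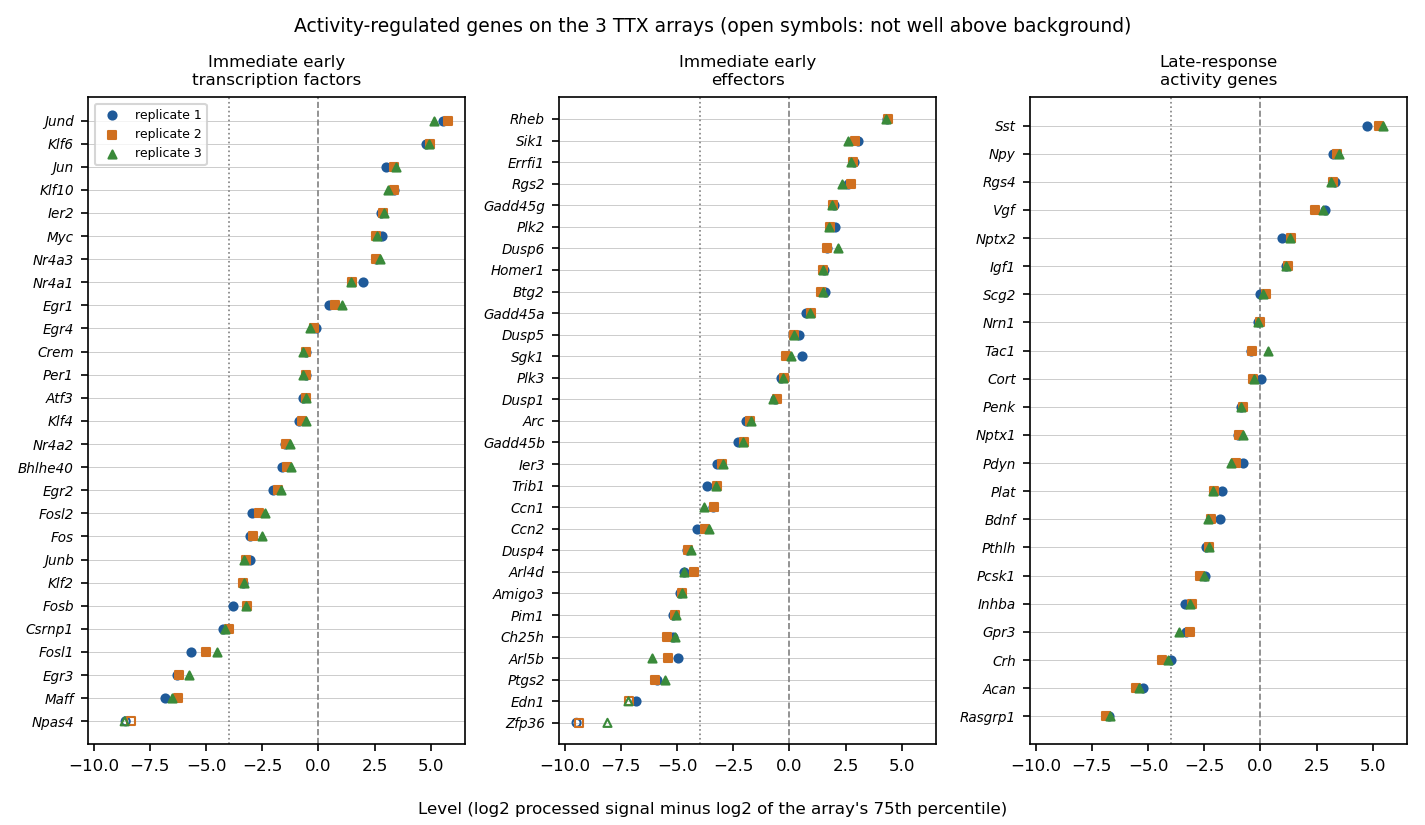
Levels of activity-regulated genes on the 3 TTX arrays, 1 row per gene and 1 symbol per replicate, with open symbols where the probe was not well above background. Most genes have levels above -4 (dotted line), as do 63.2% of all genes with a symbol, whereas Npas4 and Zfp36 have open symbols on every array.

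Late-response genes are the second wave after firing and include many secreted proteins. Of 23, 22 (95.7%) were detected, beside 78.2% of all genes, with a list median of -0.91. There were 7 bright and 12 moderate genes, which made up 82.6%, beside 63.2% of all genes. Sst had levels of 4.72, 5.27 and 5.47, Npy 3.22, 3.40 and 3.47, and the G protein regulator Rgs4 3.29, 3.22 and 3.16. Vgf, a granin-like secreted protein, had 2.89, 2.43 and 2.78. Nptx2, a pentraxin that gathers AMPA receptors, had 0.96, 1.38 and 1.32. Igf1 (1.17) and Scg2 (0.11) were the remaining bright members. The other probe of Rgs4 had -0.51, that of Nptx2 had -0.94, and those of Igf1 had -1.77, -5.62 and -6.39.

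The neurotrophin gene Bdnf had levels of -1.78, -2.18 and -2.35. Its second probe gave -2.13, -2.56 and -2.68, so both were moderate and above background on every array. Nrn1 (-0.08), Tac1 (-0.15), Cort (-0.22), Penk (-0.85), Nptx1 (-0.91), Pdyn (-1.05), Plat (-1.95), Pthlh (-2.33), Pcsk1 (-2.55), Inhba (-3.18) and Gpr3 (-3.35) were moderate too. A second probe of Penk was at background (-7.32). Crh (-4.16), Acan (-5.39) and Rasgrp1 (-6.78) were weak.

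Promoters are shown for 2 immediate early genes at background and 2 bright ones, to set their known response elements side by side. The windows are the 250 bases before the start of the RefSeq gene on the GRCr8 assembly, 5′ to 3′ on the gene's strand. Capitals mark the cAMP response element CRE (TGACGTCA), its core TGACG, which the full CRE also holds, the CArG box bound by SRF and the EGR site GCGGGGGCG, each searched on both strands.
Npas4, chr1:211716103-211716352, minus strand: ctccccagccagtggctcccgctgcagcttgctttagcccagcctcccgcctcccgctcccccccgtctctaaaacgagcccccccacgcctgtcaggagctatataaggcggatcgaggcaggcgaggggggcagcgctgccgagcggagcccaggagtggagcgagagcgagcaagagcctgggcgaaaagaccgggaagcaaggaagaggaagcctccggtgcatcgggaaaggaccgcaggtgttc
Zfp36, chr1:92799109-92799358, minus strand: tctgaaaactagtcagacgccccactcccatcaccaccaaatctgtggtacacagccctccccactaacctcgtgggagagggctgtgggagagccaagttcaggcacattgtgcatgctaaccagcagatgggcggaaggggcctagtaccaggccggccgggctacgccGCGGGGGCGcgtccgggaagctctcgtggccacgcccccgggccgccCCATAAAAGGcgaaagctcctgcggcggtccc
Egr1, chr18:26736828-26737077, plus strand: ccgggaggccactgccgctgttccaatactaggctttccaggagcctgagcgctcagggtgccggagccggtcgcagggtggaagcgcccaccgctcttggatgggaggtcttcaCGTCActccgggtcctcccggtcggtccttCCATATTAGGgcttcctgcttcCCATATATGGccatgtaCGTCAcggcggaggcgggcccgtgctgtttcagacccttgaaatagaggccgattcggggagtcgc
Jund, chr16:18769772-18770021, minus strand: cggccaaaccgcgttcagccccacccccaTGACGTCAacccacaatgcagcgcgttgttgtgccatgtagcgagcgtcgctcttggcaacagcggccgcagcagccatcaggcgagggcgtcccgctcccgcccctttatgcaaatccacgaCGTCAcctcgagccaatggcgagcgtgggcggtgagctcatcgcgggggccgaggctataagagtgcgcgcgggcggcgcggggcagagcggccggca

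In this window, Npas4 had none of these motifs. Zfp36 had an EGR site that begins at position -79 and a CArG box at -32, counted from the start site. Egr1 had CArG boxes at -105 and -83 and CRE cores at -135 and -66, and Jund had a full CRE at -221 and a further core at -98. A motif is only a match of letters, and its absence says nothing of more distant elements. Over all 27457 promoters of the table, over the window from 250 bases before to 50 after the start, 1.91% held the full CRE, 22% its core, 1.64% a CArG box and 2.78% the EGR site. Among the 12606 genes on the array with a promoter in the table, 2.51% held the full CRE and 26.9% its core. Among the 25 of 29 effector genes with a promoter in the table, 6 held the full CRE and 15 the core. The share was not read for the transcription factors or late-response genes, because only 66.7 and 65.2% of them had a promoter there.

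Promoters of genes in the bright and background classes differed in composition. Over the same window, the median number of CG pairs was 22 for 4539 bright genes, 20 for 3509 moderate genes and 3 for 2193 genes at background. The CRE core was found in 36.4, 28.6 and 12.7% of these promoters, against 26.9% over all genes on the array with a promoter. The TATA box TATAAA, on the gene's strand, was found in 4.05, 4.87 and 16.7%, against 7.58%. The median GC content was 61.3, 61.0 and 46.0%, and a motif with CG in it is met more often where CG pairs are many. Weak genes and those between were not read because only 78.9 and 79.1% of them had a promoter in the table. Olfactory receptor genes make up 750 of the 2725 genes at background, and without them 78.9% had a promoter, too few to read.

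**Figure D3:**
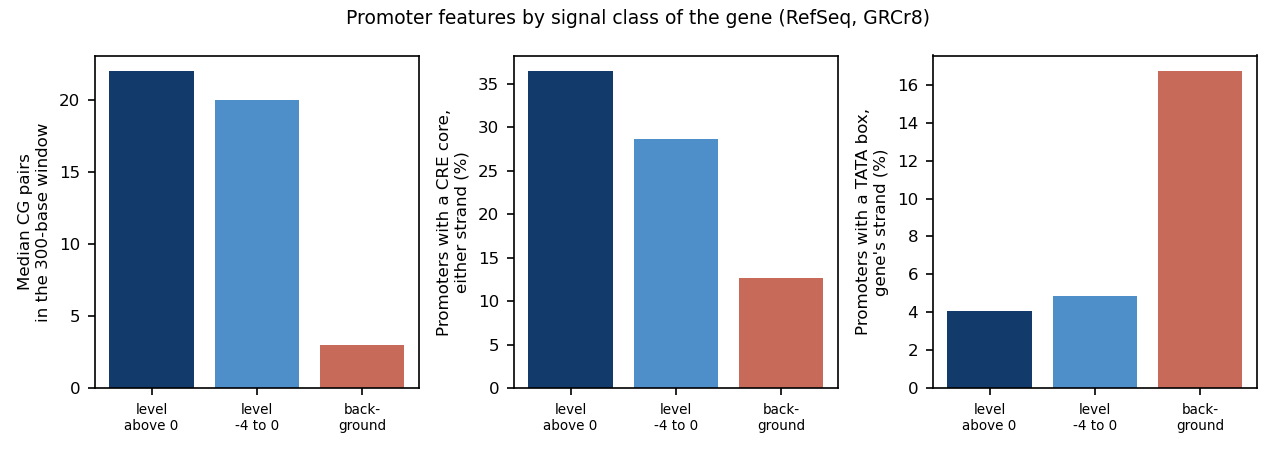
Promoter features of bright genes (level above 0), moderate genes (-4 to 0) and genes at background, over windows of RefSeq promoters. Bars give the median number of CG pairs (22, 20 and 3) and the share of promoters with the CRE core and with a TATA box, which is largest at background (16.7%).

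Genes of the machinery that reads activity were detected. All 28 genes of calcium-regulated kinases and stimulus-responsive transcription factors were, and 20 (71.4%) lay above -4, beside 63.2% of all genes. The list median of -2.69 lay below that of all genes (-1.93). Srf, the factor that binds CArG boxes, had levels of 4.03, 4.25 and 4.04, and its coactivator gene Mrtfa 3.72, 3.79 and 3.73. The kinase gene Rps6ka1 (2.93) and the class II deacetylase gene Hdac5 (2.44) followed. Their other probes were dimmer, with -5.50, -2.45 and 0.78 for Srf, -2.46 for Mrtfa and -3.02 and -3.87 for Hdac5. Creb1, which encodes the CRE-binding protein, was moderate at -3.16 ± 0.11 and was named after its value was seen.

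Many rapid immediate early genes are known to hold a paused RNA polymerase II at their start. Of 20 genes of pausing and elongation factors, 18 were detected and 12 were bright. The negative elongation factor gene Nelfb (5.40 ± 0.14), Gtf2f1 (5.12 ± 0.10) and Aff4 (4.26 ± 0.17, with 4 dimmer probes from -1.84 to 0.53) were among the highest. Ell3 lay between and Aff1 was at background.

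Of 14 subunit genes of sodium channels, the target of the toxin, 12 (85.7%) were detected and 10 (71.4%) lay above -4, beside 78.2 and 63.2% of all genes. The beta subunit gene Scn3b had levels of 5.80, 6.0 and 5.86. Scn2a had 2.47, 2.35 and 2.53 on the brightest of its 3 probes, whose means were 2.45, 1.31 and -1.07, and Scn3a, an alpha subunit of immature brain, had 2.28, 2.14 and 2.33. Scn1a (-1.67), Scn9a (-1.99), Scn4b (-2.29), Scn8a (-2.77), Scn11a (-3.50) and Scn2b (-3.90) were moderate. Scn9a, Scn4b and Scn8a each rest on 1 of 2 probes, since the others were at background (-7.59, -9.07 and -9.21), and 9 of the 14 genes were detected when every probe had to pass.

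Sodium channel genes known from other tissues were mostly low. Scn7a was weak (-5.03). Scn10a, of sensory neurons, stood above background on 2 arrays. Scn4a, of skeletal muscle, was at background with -9.52, -8.34 and -9.29. Scn11a, also known from sensory neurons, was moderate on all 3 arrays. Scn10a and Scn11a encode channels that are known to resist the toxin.

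Of 72 potassium channel genes, 59 (81.9%) were detected and 44 (61.1%) lay above -4, beside 78.2 and 63.2% of all genes. They fell into 11 bright, 33 moderate and 15 weak genes. Among the bright ones were the 2-pore channel gene Kcnk2 (2.97, 2.56 and 2.45), Kcnh1 (1.80) and Kcnq5 (1.30, with a second probe at -3.25). Kcnj10 lay between, and Kcna7, Kcnh5, Kcnh8, Kcnj1, Kcnj2, Kcnj5, Kcnj8, Kcnj13, Kcnj15, Kcnk18, Kcnq1 and Kcnv2 were at background. Of 17 partner subunits, 13 (76.5%) were detected and 11 (64.7%) lay above -4, beside 78.2 and 63.2% of all genes. Kcnmb4 (3.39), Dpp6 (-0.13), Dpp10 (-0.43) and Kcnip4 (-0.97) led, Kcne3 lay between and Kcne1, Kcne4 and Kcnmb1 were at background.

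Of 22 calcium channel genes, 19 were detected and 6 were bright. The auxiliary subunits Cacnb3 (5.44 ± 0.12) and Cacna2d1 (5.39 ± 0.04) led, with the N-type pore gene Cacna1b at 3.03 ± 0.19 and Cacnb1 at 2.73 ± 0.09. Cacng5, the retinal pore gene Cacna1f and Cacna2d4 were at background. Cacna1b had a second probe at -5.70. All 6 genes of HCN and leak channels were detected, among them Hcn2 (3.07, other probe -2.06), Nalcn (2.35) and Hcn3 (-0.72).

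Chloride transporters set whether GABA inhibits a neuron. Slc12a5, which exports chloride from mature neurons, had levels of 5.35, 5.27 and 5.32 on its brightest probe and a mean of -4.31 on the other. The importer gene Slc12a2, typical of young neurons and named after its value was seen, had -0.09, -0.41 and -0.39, and -4.73 on its other probe. Of 17 genes of chloride channels and transporters, 14 (82.4%) were detected and 10 (58.8%) lay above -4, beside 78.2 and 63.2% of all genes. Slc12a4 (1.33), Clcn3 (0.61) and Clcn4 (0.41, other probes -1.15 and -1.90) were next after Slc12a5. Cftr lay between, and Ano1 and Slc12a3 were at background.

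**Figure D4:**
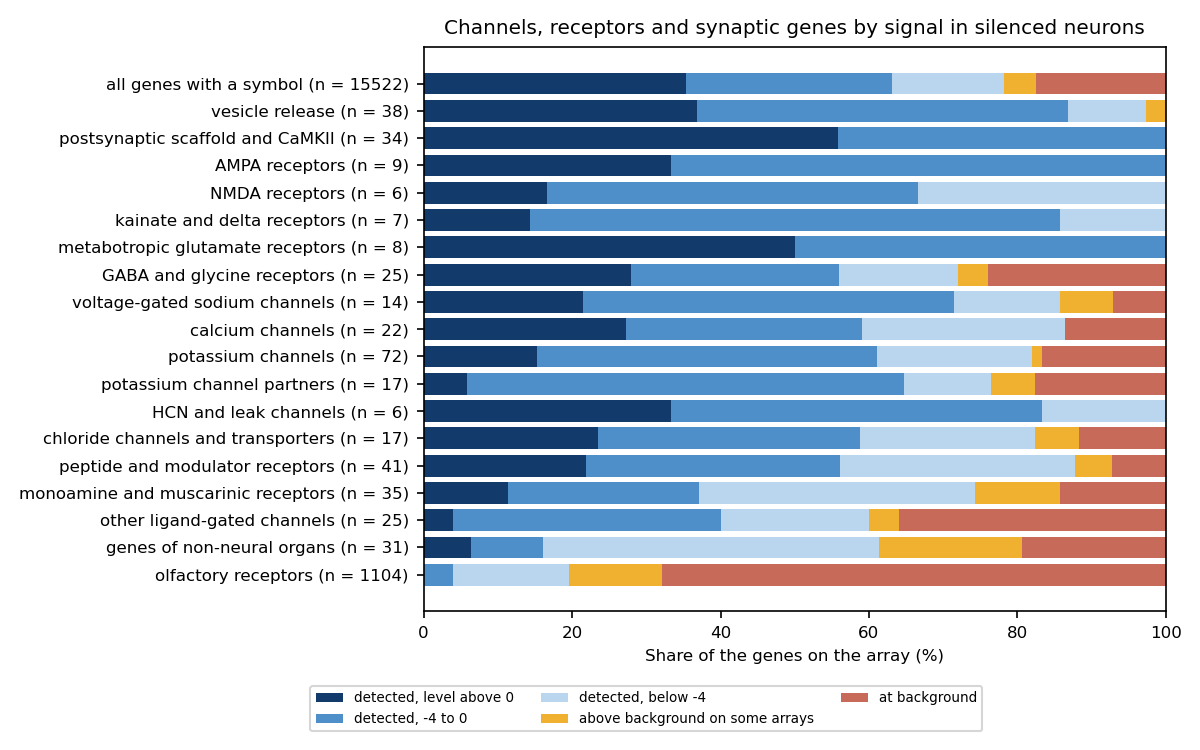
Share of the genes of each list in 5 classes of signal on the TTX arrays, with all genes, genes of non-neural organs and olfactory receptors for scale. Every member of the postsynaptic, AMPA and metabotropic glutamate receptor lists was detected above -4, whereas 10 of 25 members of the list of other ligand-gated channels were.

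Glutamate receptor genes were all detected. The 9 genes of AMPA receptors and their partners were led by the auxiliary gene Cnih2 (3.03 ± 0.14) and by Gria2, whose edited subunit keeps calcium out, at 2.83, 2.51 and 2.62. The stargazin gene Cacng2 had -0.04, 0.58 and 0.78. Gria4 (-0.20), Cacng8 (-1.45), Cacng3 (-2.01) and Cacng4 (-3.87) were moderate. Gria1 had -3.25, -2.23 and -2.79 and Gria3 -3.06, -2.88 and -2.72. Among the pore subunits, Gria2 was thus the only bright one on every array.

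The 6 NMDA receptor genes ranged from bright to weak. Grin1, the subunit every NMDA receptor needs, had levels of 2.08, 2.28 and 2.29 on its brighter probe and a mean of -3.12 on the other. Grin2b, the partner that prevails early in development, had -4.04, -3.80 and -3.58, and Grin2a, which rises later, had -4.80, -5.41 and -5.11. Grin2c (-1.65), Grin3a (-3.53) and Grin3b (-4.50) completed the list. The list median of -3.67 lay below that of all genes (-1.93), with different probes for each gene.

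All 7 kainate and delta receptor genes were detected, with Grik5 (2.39), Grik2 (-0.04) and Grik4 (-0.62) highest. So were all 8 metabotropic glutamate receptor genes, each above -4, among them Grm2 (0.27), Grm3 (0.11) and Grm4 (0.00). These receptors act through G proteins and not through a pore.

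Of 25 GABA and glycine receptor genes, 18 (72.0%) were detected and 14 (56.0%) lay above -4, beside 78.2 and 63.2% of all genes. Among them, 7 were bright. The metabotropic subunits Gabbr2 (3.72 ± 0.15) and Gabbr1 (2.39 ± 0.05, other probe -3.57) led. The glycine receptor gene Glra2, a form of developing brain, had levels of 1.84, 1.76 and 2.03. Gabrb1 (1.07), Gabra5 (1.03) and Glrb (0.97) were also bright.

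The alpha subunits mark different types of GABA-A receptor. Gabra4 had a level of -1.41 ± 0.42 and Gabra3 of -1.99 ± 0.14. Gabrd (-0.10), Gabrg1 (-0.18) and Gabrq (-0.42) were moderate too, and Gabrb2 (-4.83), Gabrr3 (-4.91), Glra1 (-5.26, 1 of 2 probes) and Gabrg3 (-5.39) weak. Gabrr2 lay between. Gabra6, typical of cerebellar granule cells, was at background with -9.48, -8.49 and -9.29, as were Gabre, Gabrp, Gabrr1, Glra3 and Glra4. Gabra2 was not analysed here.

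**Figure D5:**
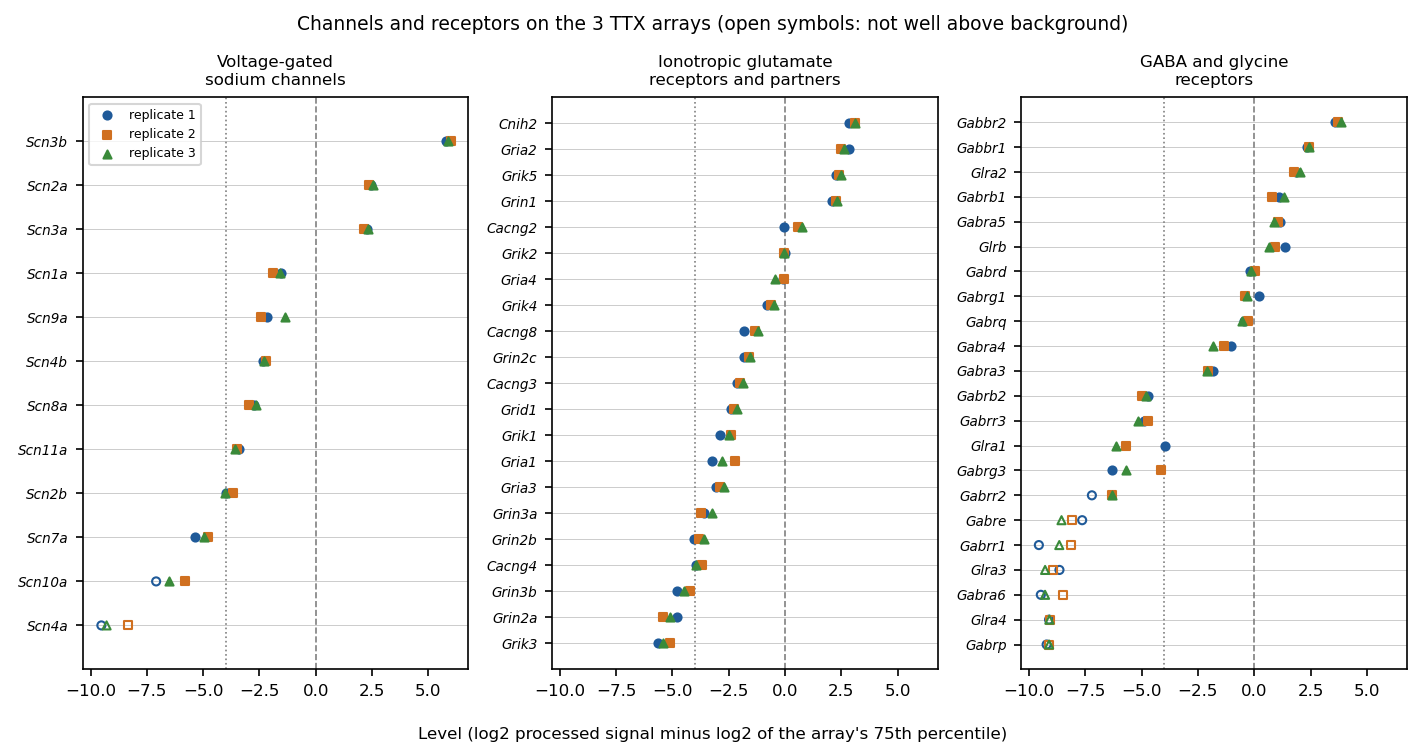
Levels of sodium channels, ionotropic glutamate receptors and GABA and glycine receptors on the 3 TTX arrays, 1 row per gene, with open symbols where the probe was not well above background. The glutamate receptor panel has filled symbols throughout, while Scn4a, Gabre, Gabrr1, Glra3, Gabra6, Glra4 and Gabrp are open on every array.

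Other ligand-gated channels were the list with the largest share at background among the channel and receptor lists. Of 25 genes, 15 (60.0%) were detected and 10 (40.0%) lay above -4, beside 78.2 and 63.2% of all genes. The homomeric nicotinic receptor gene Chrna7 was the only bright one (1.08, 0.93 and 1.33, with other probes at -3.14 and -4.58), followed by Chrna4 (-0.51), P2rx6 (-1.69) and Chrna5 (-1.84). P2rx3 lay between, and Chrna1, Chrna2, Chrna6, Chrna9, Chrnb3, Chrnd, P2rx1, P2rx5 and P2rx7 were at background. Several of these serve muscle, sensory neurons or immune cells.

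Receptors for amines and peptides were led by a few genes. Of 35 monoamine and muscarinic receptors, 26 (74.3%) were detected but 13 (37.1%) lay above -4, beside 78.2 and 63.2% of all genes. Chrm3 had 3.42, 3.26 and 3.22, with Adra2c (1.11), Chrm4 (0.90) and Adra1b (0.38) next. The dimmer probes of Chrm4 (-4.30) and Adra1b (-3.93 and -4.60) lay far lower. Chrm2, Htr1b, Adrb3 and Hrh2 lay between, and Htr4, Chrm5, Htr1f and Adra1a were at background. Of 41 peptide and modulator receptors, 36 (87.8%) were detected and 23 (56.1%) lay above -4, beside 78.2 and 63.2% of all genes. The cannabinoid receptor gene Cnr1 had 3.17, 3.28 and 3.47, and Ntsr2 (2.01), the adenosine receptor gene Adora1 (1.60, other probe -2.27) and the somatostatin receptor gene Sstr1 (1.40) followed. Galr1 and Galr3 lay between, and Npy2r, the mu opioid receptor gene Oprm1 and Cnr2 were at background.

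Genes of both sides of the synapse were mostly detected. Of 38 genes of vesicle release, 37 were detected, 14 bright and 19 moderate, led by Syt5 (5.60 ± 0.03), Syngr3 (5.54 ± 0.07), Sv2b (4.42 ± 0.83) and the SNARE gene Snap25 (4.26 ± 0.01). Sv2b varied, with 5.18, 4.54 and 3.54 on the 3 arrays, and its other probes had -1.19 and -7.06. Sv2c lay between. All 34 genes of synaptic adhesion, postsynaptic scaffolds and CaMKII lay above -4, 19 of them bright. The neurexin gene Nrxn2 had 6.23, 6.33 and 6.22, followed by the CaMKII inhibitor gene Camk2n1 (4.03) and Camk2b (3.85). Their dimmer probes had 1.13 for Nrxn2, -4.78 for Camk2n1 and 1.39 and -7.37 for Camk2b.

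Many genes of secreted signals were bright. All 26 neuropeptide and granin genes were detected, 16 of them bright, and the granins and chaperones of dense-core vesicles Chgb (5.94 ± 0.07), Scg3 (5.81 ± 0.05) and Scg5 (5.04 ± 0.10) were among the highest, although the other probes of Scg3 had 0.86 and 1.25. All 15 genes of neurotrophic factors and their receptors were detected. The Bdnf receptor gene Ntrk2 had 4.27, 4.44 and 4.50, Gdnf 3.74, 4.18 and 4.14 and Ntrk3 3.79, 3.36 and 3.80, with Gfra2 at 1.22. The other probe of Gdnf was at background (-9.20) and that of Ntrk2 had 0.77.

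Stress genes were bright, and most cytokines were not detected. Of 19 genes of stress and cell death, 18 were detected and 15 were bright, with the integrated stress response factor Atf4 (5.64 ± 0.06), the endoplasmic reticulum chaperone genes Hspa5 (5.02 ± 0.01) and Hsp90b1 (3.67 ± 0.06) and the apoptosis gene Bbc3 (4.75 ± 0.04) highest. The heat shock gene Hspa1b was at background, while Hspa1a, named after its values were seen, was detected on both of its probes (0.09 and -2.18). Of 19 inflammation genes, 10 were detected and 4 lay above -4, namely Vcam1 (3.80), Nfkbia (0.95), Nfkb1 (0.58) and Socs3 (-3.95). Nfkbia had a second probe at -3.87 and Nfkb1 at -1.36. Tnf, Il1a, Il1b, Il6, Nos2, Cxcl2, Ccl3, Ccl4 and Ccl5 were at background.

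The arrays disagreed on few genes. Of the 12140 detected genes, 339 (2.79%) had an SD over 0.5. Replicates 2 and 3 differed by more than 1 for 78 genes, and replicate 1 differed by more than 1 from replicate 2 for 161 and from replicate 3 for 155. Spock2, a proteoglycan gene, varied most, with levels of 1.62, 2.03 and -3.25, so that replicate 3 alone was low. Serpinf1 (0.58, -1.86 and -2.14), Trim16 (-2.61, -4.98 and -5.35) and Asb10 (-3.84, -6.10 and -6.57) were high on replicate 1. Gsn, which encodes the actin-severing protein gelsolin, was low there, at 0.40 against 2.53 and 2.91.

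Replicate 3 was the high one for Nostrin (-6.76, -6.58 and -4.23), Senp5 (-3.07, -2.22 and -0.33), the chemokine gene Cxcl10 (-6.84, -6.33 and -4.21) and Zap70 (-4.08, -3.71 and -1.59). Replicate 2 was the low one for Mrps10 (-1.37, -3.45 and -0.81). None of the activity genes named above was among these 10, and the largest SDs among them were 0.76 for Zfp36 and 0.59 for Fosl1, both at low signal.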

How the data were processed

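Messenger RNA of 3 TTX samples was read on single-colour Agilent arrays. Per the file headers, signals were extracted with Feature Extraction 9.5.3.1 (9.5 in the submitters' processing notes) and the deposited processed signal is a background-corrected intensity per spot, not scaled between arrays. The deposited value table holds the same intensity values (largest difference 0). Of 45018 spots, 1639 control spots and 49 to 90 outlier spots per array were left out, spots of a probe were averaged, and 41011 probes were kept. Background flags are those of the scanner software. Of these probes, 20074 were named through the RefSeq table of GRCr8 by accession (10724), other accession (53), symbol (5581) or synonym (3716). The 20937 others are unnamed here.

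Levels were computed in Python 3.11.15 with pandas 2.3.3 as log2 of the processed signal minus log2 of its 75th percentile, with no filter, and the gene scoring was tested on simulated data. With 1 group and no comparison there is no test. The 44 gene lists and the settings were chosen with earlier results of these data known, and the level of -4 was chosen after the levels of non-neural genes were seen. Named are the 25 brightest and 10 most variable genes, the 4 highest members of each list, members at or near background (the first 12 in list order where there were more) and any member of the immediate early, late-response, sodium channel, AMPA, NMDA and GABA lists. Others are said to be chosen after their values were seen. Some genes that this rule names are not reported here and are not drawn in the plots by gene. Alternatives were normexp background correction with an offset of 50 and quantile normalization (limma), other detection rules, other summaries of probes and leaving out each array. Figures were drawn with matplotlib 3.10.9.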

Additional observations from a re-analysis of the deposited data

How the results depend on the processing

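The number of detected genes (12140) was 13476 with the flag for positive and significant signal, 12417 when 2 arrays sufficed, 11704 when every probe had to pass, 12185 to 12297 leaving out 1 array, and 9803 with a level above -4. The list counts that moved by more than 1.5 times were endothelial genes (from 5 to 9) with the positive and significant flag, and microglia (10 to 5) and endothelial genes (5 to 3) when every probe had to pass. With a level above -4, a setting added after seeing the data, they were other neuron types (22 to 9), regional identity (13 to 2), microglia (10 to 3), endothelial (5 to 1), ependyma (7 to 3), non-neural organs (19 to 5), monoamine receptors (26 to 13), peptide receptors (36 to 23) and inflammation (10 to 4). The counts of the other lists stayed within 1.5 times under these settings.

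The median level of all genes (-1.93) was -1.79 with normexp, -2.97 with the percentile taken over probes above background, -2.33 with the mean of a gene's probes, -0.443 over detected genes and -1.93 to -1.92 leaving out 1 array. Of 1012 named genes and list members, 566 moved by more than their SD with normexp, 992 with the other percentile and 241 with the mean of probes. Of the 25 brightest genes, 20 stayed among the 25 with normexp, 24 with quantile normalization, 19 with the mean of probes and 23 to 24 leaving out 1 array. The median SD (0.129) was 0.122, 0.126 and 0.0952 to 0.123 under normexp, quantile normalization and leaving out 1 array.

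No paired analysis was possible because no result here comes from a test. Signal over background limits what is read from weak genes, and a gene at background has a bound on its signal and not a level of 0. That bound is not one on its transcripts: 12% of genes with several probes had probes both above and at background.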

Other observations

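Gene families that were no list of the report gave the same scale a second view. Of 1104 olfactory receptor genes, 216 (19.6%) were detected, 44 lay above -4 and 750 were at background. Vomeronasal receptors were detected for 5 of 35 genes, bitter taste receptors for 1 of 11, trace amine receptors for 3 of 15 and defensins for 1 of 7. Keratins (13 of 31) and cytochromes P450 (30 of 68) were detected more often, but 3 keratins and 14 cytochromes lay above -4.

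Other families were detected more often. All 4 stathmins, which regulate microtubules, were bright, with a median level of 6.62. Of 47 proteasome genes, 44 were bright (median 3.61). Tubulins were detected for 15 of 16 genes, kinesins, the motors of axonal transport, for 33 of 35, Rab GTPases of membrane traffic for 54 of 58 and histones for 25 of 28. Among guidance and adhesion genes, 27 of 28 semaphorins and plexins, 29 of 31 protocadherins and 19 of 21 ephrins and Eph receptors were detected. The families were chosen after levels had been seen.

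Probes of the same gene often gave different signals. Among 3627 genes with several probes, the median range between them was 2.32 and 436 (12%) had probes both above and at background. Probes without a symbol were detected less often (66.4%) than named ones (79.4%).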
